A study of Mus musculus with 27 samples.

Results

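Postn, Tgfbi, Fn1, Tnc, Cilp, Sparc, Fstl1 and Spp1 encode secreted proteins of the extracellular matrix, most of them matricellular, and their RNA was followed in mouse hearts under pressure overload. The 8 genes were matched by symbol in the probe annotation, and 7 of the 8 were measured, out of 19937 genes tested. Each of the 7 was represented by 1 probe set. No probe set carried the symbol Spp1, the gene of osteopontin, and Spp1 was not analysed here. The hearts came from male C57Bl/6J littermates, 10 to 12 weeks old, that underwent transverse aortic constriction (TAC) or a sham operation. TAC narrows the aortic arch with a suture, and the labels give a peak gradient of about 50 mmHg across it. The mice then received injections of JQ1 or of the DMSO vehicle, starting 1.5 days after surgery. JQ1 is a small molecule that occupies the acetyl-lysine pockets of BET bromodomain proteins. At days 3, 11 and 28 the labels give 3 groups of 3 arrays each, TAC JQ1, TAC vehicle and sham vehicle, which makes 9 groups and 27 arrays. A sham group with JQ1 was not analysed here, so each effect of JQ1 is one in hearts with TAC. RNA came from a piece of 10 to 20 mg of heart whose chamber the labels do not name.

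Matricellular proteins are deposited in the matrix after injury or load, bind collagen, growth factors and integrins, and change how cells attach and respond more than they bear force themselves. In the adult heart most are sparse, and fibroblasts make much of them again when the wall is stretched or scarred. Fibronectin, the product of Fn1, is as much a structural adhesive protein as a matricellular one, and it is a scaffold on which collagen and the others assemble.

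Values are log2 signals as the authors deposited them, and differences are log2 fold changes ± standard error from 1 limma fit to the 27 arrays. A gene was called when its p, adjusted by Benjamini-Hochberg over all 19937 genes, was under 0.05. Nothing in the labels beyond the littermates says that the arrays are separate animals, so the p-values measure only the spread between these arrays. That spread is shared over the 9 groups, and the number of arrays limits the precision. Array medians lay between 6.95 and 7.04, and Pearson's r between arrays over all probe sets was 0.963 to 0.994. On TAC vehicle replicate 2 of day 3 all 7 genes lay above their group means, by 0.44 on average. On TAC vehicle replicate 2 of day 28 all 7 lay below theirs, with a mean deviation of −0.39. TAC vehicle replicate 1 of day 3 deviated as far, with 6 of the 7 genes below and a mean deviation of −0.40. These arrays are in every count below unless a sentence says otherwise. Cardiomyocyte markers such as Myh6 and Tnnt2 were bright on every array, with summed linear signals between 114849 and 126304, which is the labelled tissue.

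The 250 bases before the annotated start are shown for Postn, Fstl1 and Sparc, whose levels over the arrays were the most alike, and for Tnc, whose course over the days was another. They were taken from RefSeq (GRCm38.p6), 5′ to 3′ on the gene's strand, and capitals mark every match to a searched motif. Postn lies at chr3:54359017-54359266 on the plus strand, Fstl1 at chr16:37776805-37777054 on the plus strand, Sparc at chr11:55420081-55420330 on the minus strand and Tnc at chr4:64047016-64047265 on the minus strand.
Postn: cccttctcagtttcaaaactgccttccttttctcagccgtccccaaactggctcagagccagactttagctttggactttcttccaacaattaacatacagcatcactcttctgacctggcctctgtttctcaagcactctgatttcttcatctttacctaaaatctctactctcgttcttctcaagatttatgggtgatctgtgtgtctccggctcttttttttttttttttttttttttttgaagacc
Fstl1: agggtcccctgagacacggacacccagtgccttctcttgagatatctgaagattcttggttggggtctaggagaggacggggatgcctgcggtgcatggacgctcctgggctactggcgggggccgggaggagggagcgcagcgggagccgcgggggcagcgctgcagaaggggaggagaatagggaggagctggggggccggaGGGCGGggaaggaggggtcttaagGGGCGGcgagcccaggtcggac
Sparc: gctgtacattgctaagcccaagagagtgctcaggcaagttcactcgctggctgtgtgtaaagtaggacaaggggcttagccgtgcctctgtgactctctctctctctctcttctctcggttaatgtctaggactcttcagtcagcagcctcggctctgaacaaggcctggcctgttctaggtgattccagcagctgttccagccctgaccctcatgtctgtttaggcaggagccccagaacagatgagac
Tnc: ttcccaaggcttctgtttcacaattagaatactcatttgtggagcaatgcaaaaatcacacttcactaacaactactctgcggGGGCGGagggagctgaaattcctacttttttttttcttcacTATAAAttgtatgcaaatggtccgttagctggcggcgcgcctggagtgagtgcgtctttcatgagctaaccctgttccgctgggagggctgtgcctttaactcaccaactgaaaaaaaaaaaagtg
Both strands were searched for 6 motifs, and the shares are those of all 32851 windows of this length. The TATA box was searched as TATAAA, which 12.4% of windows held, and the GC box as GGGCGG, which 32.7% held. The AP-1 site, TGANTCA, was in 6.7% of windows, and the TEAD site, with the letters CATTCC, was in 12.6%. The CCAAT box, named by its letters, was in 33.8%, and the CArG box that serum response factor binds was in 1.5%. The Tnc window held a TATA box at −126 and a GC box at −167 from the start. Fstl1 held GC boxes at −46 and at −22, and the windows of Postn and Sparc held none of the 6 motifs. Windows existed for 6 of the 7 genes, not for Fn1. Of the 2 that are not printed, Cilp held no motif and Tgfbi 1 GC box at −124. G and C made up 40.4% of the Postn window, 68.0% of Fstl1, 54.0% of Sparc and 44.8% of Tnc. A match or its absence describes these letters only.

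TAC raised 6 or 7 of the 7 genes on each day studied. At day 3 all 7 were called higher in TAC vehicle than in sham hearts, beside 4.22% of all genes. At day 11 it was 6 of 7, all but Tgfbi, beside 7.8% of all genes, and at day 28 6 of 7, all but Tnc, beside 8.13%. The day 3 count was 6, without Cilp, when TAC vehicle replicate 2 or sham replicate 3 of that day was left out. In the mean of the 3 days all 7 were called higher, beside 13.0%. Every TAC vehicle array lay above every sham array of its day for all 7 genes, which held for 9.7%, 16.8% and 16.6% of all genes at days 3, 11 and 28. In bulk tissue fewer cells of a type and less RNA per cell cannot be told apart, and this holds for each difference below.

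JQ1 lowered the same 7 genes in the mean of the 3 days, beside 16.8% of all genes called lower. At day 3 2 of 7 were called lower, Fn1 and Tgfbi, beside 7.61% of all genes. At day 11 it was 6 of 7, beside 8.43%, and at day 28 6 of 7, beside 12.4%. All TAC JQ1 arrays lay below all TAC vehicle arrays for 1 gene at day 3 and for all 7 at days 11 and 28, against 12.0%, 19.5% and 17.0% of all genes. The same TAC vehicle arrays enter the comparison with sham and the comparison with JQ1, so a high or low array among them moves both. Leaving out TAC vehicle replicate 1 of day 3 turned the count of 2 into 3, with Tnc. Leaving out TAC vehicle replicate 2 or 3 or TAC JQ1 replicate 1 turned it into 1, Tgfbi alone. The counts of 6 at days 11 and 28 became 5 through Tnc and Fstl1, on the arrays named with those genes.

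**Figure D1:**
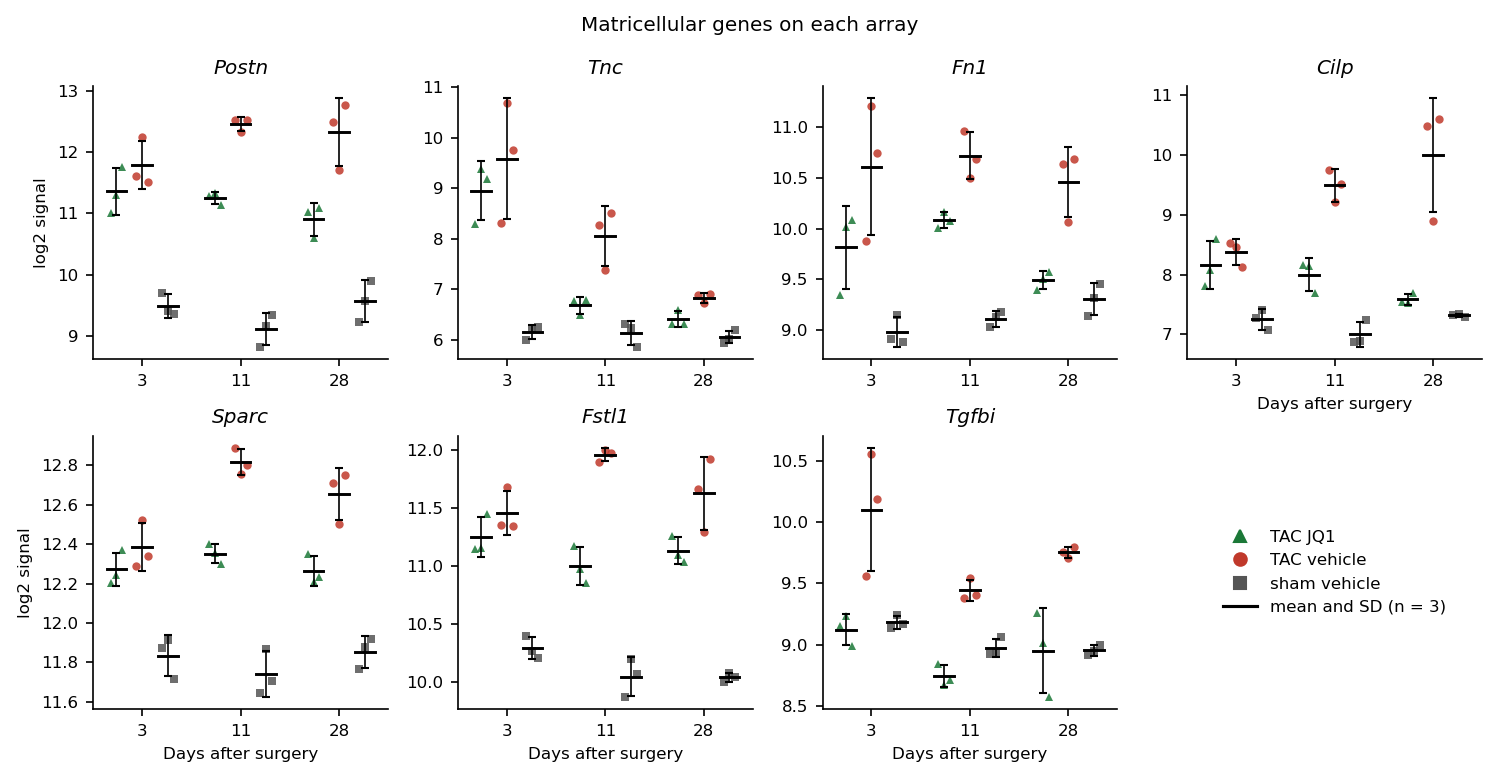
Log2 signal of the 7 measured genes on each array by day after surgery, with TAC JQ1 (triangles), TAC vehicle (circles) and sham vehicle (squares) side by side. Bars give the mean and SD of 3 arrays, each panel has its own scale that does not start at 0, and all TAC vehicle arrays lie above all sham arrays of their day in each panel.

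Periostin, encoded by Postn, is a fasciclin-domain protein of activated fibroblasts that binds collagen and αv integrins and promotes cross-linking. At day 3 Postn measured 11.00, 11.31 and 11.77 in TAC JQ1 hearts, 11.61, 12.25 and 11.52 in TAC vehicle hearts, and 9.71, 9.41 and 9.35 in sham hearts. At day 11 Postn stood at 11.29, 11.34 and 11.14 with TAC JQ1, 12.52, 12.33 and 12.52 with TAC vehicle, and 8.82, 9.16 and 9.33 with sham. At day 28 Postn was 11.02, 10.60 and 11.09 in TAC JQ1 hearts, 12.50, 11.71 and 12.77 in TAC vehicle hearts, and 9.23, 9.57 and 9.90 in sham hearts. Both TAC groups lay above sham on each day, and JQ1 and vehicle arrays overlapped at day 3 and were separate at days 11 and 28. TAC vehicle hearts held 4.93, 10.2 and 6.78 times the sham signal at days 3, 11 and 28 (log2 2.30 ± 0.24, 3.35 ± 0.24 and 2.76 ± 0.24, adjusted p = 4.49e-06, 3.89e-09 and 9.56e-08). At day 11 this was the highest fold change of all 19937 genes. Postn was lower with JQ1 than with vehicle at day 11 (−1.20 ± 0.24) and day 28 (−1.42 ± 0.24), with adjusted p = 0.00107 and 0.000142. The day 3 difference, −0.43 ± 0.24, was not called (adjusted p = 0.295). JQ1-treated hearts still held more Postn than sham hearts, by 1.87, 2.15 and 1.34 at days 3, 11 and 28 (adjusted p = 7.81e-06, 4.63e-06 and 0.000209).

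Tgfbi encodes the other fasciclin-domain protein of the set, a TGF-beta-induced adhesion protein that binds collagens and integrins. At day 3 Tgfbi measured 9.15, 9.23 and 8.98 in TAC JQ1 hearts, 9.56, 10.55 and 10.19 in TAC vehicle hearts, and 9.14, 9.24 and 9.17 in sham hearts. At day 11 Tgfbi stood at 8.84, 8.67 and 8.71 with TAC JQ1, 9.38, 9.54 and 9.41 with TAC vehicle, and 8.93, 8.93 and 9.06 with sham. At day 28 Tgfbi was 9.26, 9.02 and 8.58 in TAC JQ1 hearts, 9.76, 9.70 and 9.80 in TAC vehicle hearts, and 8.92, 8.95 and 9.0 in sham hearts. TAC vehicle arrays stood alone at the top on each day, and JQ1 arrays overlapped with sham at days 3 and 28 and lay below it at day 11. The rise with TAC was called at day 3 (0.92 ± 0.16, adjusted p = 0.00101) and at day 28 (0.80 ± 0.16, adjusted p = 0.0013). At day 11 the difference was 0.47 ± 0.16 (adjusted p = 0.0515), and it was called without the dimmest genes (0.0347), with array weights (0.00515) and with the groups compared fitted alone (0.00473). Tgfbi was the 1 gene of the set whose JQ1 arrays were separate from TAC vehicle at day 3, and its JQ1 differences were −0.98, −0.70 and −0.80 at days 3, 11 and 28 (SE 0.16 each, adjusted p = 0.000307, 0.00424 and 0.001). Against sham the JQ1 hearts differed by −0.06 (95% interval −0.39 to 0.28), −0.23 (−0.57 to 0.10) and −0.00 (−0.34 to 0.33). None of these was called (adjusted p = 0.893, 0.432 and 0.996). With the groups compared fitted alone the day 3 calls of Tgfbi were lost, at adjusted p = 0.0592 for JQ1 and 0.071 for TAC.

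Fibronectin is bound mainly by integrin α5β1, which pulls it into fibrils. At day 3 Fn1 measured 9.34, 10.01 and 10.09 in TAC JQ1 hearts, 9.87, 11.21 and 10.75 in TAC vehicle hearts, and 8.91, 9.15 and 8.88 in sham hearts. At day 11 Fn1 stood at 10.01, 10.16 and 10.07 with TAC JQ1, 10.96, 10.50 and 10.69 with TAC vehicle, and 9.03, 9.13 and 9.17 with sham. At day 28 Fn1 was 9.40, 9.50 and 9.57 in TAC JQ1 hearts, 10.64, 10.06 and 10.68 in TAC vehicle hearts, and 9.14, 9.32 and 9.45 in sham hearts. The JQ1 arrays lay between vehicle and sham at day 11, overlapped with vehicle at day 3 and overlapped with sham at day 28. TAC raised Fn1 3.10-fold, 3.05-fold and 2.23-fold at days 3, 11 and 28 (1.63, 1.61 and 1.16, SE 0.23 each, adjusted p = 0.000118, 2.8e-05 and 0.00105). The fall with JQ1 was called at day 28 (−0.97 ± 0.23, adjusted p = 0.00383) and at day 3 (−0.79 ± 0.23, adjusted p = 0.0242). The day 11 difference of −0.64 ± 0.23 was not (adjusted p = 0.0605). It was called with quantile normalization (adjusted p = 0.047), without the dimmest genes (0.0427), with array weights (0.00169) and with the groups compared fitted alone (0.00808). The day 3 call rested on single arrays. It stood at −0.49 (adjusted p = 0.205) when TAC vehicle replicate 2 was left out and at −0.73 (0.0846) when replicate 3 was. When TAC JQ1 replicate 1 was left out it stood at −0.56 (adjusted p = 0.183). Array weights (−0.48, adjusted p = 0.112) and a fit of the groups compared alone (0.261) also ended it. Relative to sham, JQ1-treated hearts held more Fn1 at day 3 (0.84, adjusted p = 0.0117) and day 11 (0.97, 0.00647), and at day 28 the difference was 0.19 (95% interval −0.29 to 0.66, adjusted p = 0.674). Leaving out TAC JQ1 replicate 2 (0.74, adjusted p = 0.0551) or 3 (0.70, 0.0586) ended the day 3 call against sham.

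Tenascin-C, the product of Tnc, is a multi-armed glycoprotein of embryonic and wounded tissue that loosens cell attachment and is nearly absent from healthy heart muscle. At day 3 Tnc measured 8.29, 9.38 and 9.19 in TAC JQ1 hearts, 8.32, 10.69 and 9.76 in TAC vehicle hearts, and 6.00, 6.22 and 6.25 in sham hearts. At day 11 Tnc stood at 6.76, 6.50 and 6.79 with TAC JQ1, 8.27, 7.38 and 8.50 with TAC vehicle, and 6.31, 6.23 and 5.86 with sham. At day 28 Tnc was 6.32, 6.60 and 6.31 in TAC JQ1 hearts, 6.89, 6.72 and 6.90 in TAC vehicle hearts, and 5.95, 6.03 and 6.19 in sham hearts. Both TAC groups were separate from sham on each day, and the TAC arrays came closer to sham at each later day. The rise with TAC was 10.8-fold at day 3 and 3.78-fold at day 11 (3.43 ± 0.37 and 1.92 ± 0.37, adjusted p = 5.8e-06 and 0.000663). The day 28 difference, 0.78 ± 0.37, was not called (adjusted p = 0.169), but it was with the groups compared fitted alone (0.000856). The 3 TAC vehicle arrays of day 3 had an SD of 1.19, the widest spread of this gene among the 9 groups. JQ1 lowered Tnc at day 11 (−1.37 ± 0.37, adjusted p = 0.0122). At day 3 the difference was −0.63 ± 0.37 (adjusted p = 0.328) and at day 28 −0.42 ± 0.37 (0.411, but 0.0327 with the groups compared fitted alone). Leaving out TAC JQ1 replicate 2 (−1.27, adjusted p = 0.0534) or TAC vehicle replicate 1 (−1.26, 0.0554) or 3 (−1.14, 0.0619) ended the day 11 call. With the low day 3 array, TAC vehicle replicate 1, left out, Tnc was called at day 3 too (−1.27, adjusted p = 0.00633). Against sham, JQ1-treated hearts were called higher at day 3 (2.80 ± 0.37, adjusted p = 1.18e-05), and differed by 0.55 at day 11 (95% interval −0.21 to 1.31) and 0.36 at day 28 (−0.40 to 1.11). The day 11 difference was called with the groups compared fitted alone (adjusted p = 0.0331).

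Cilp encodes cartilage intermediate layer protein, a matrix protein first known from cartilage that binds TGF-beta and that cardiac fibroblasts also secrete. At day 3 Cilp measured 7.81, 8.08 and 8.60 in TAC JQ1 hearts, 8.53, 8.46 and 8.13 in TAC vehicle hearts, and 7.28, 7.41 and 7.07 in sham hearts. At day 11 Cilp stood at 8.17, 8.15 and 7.68 with TAC JQ1, 9.74, 9.21 and 9.52 with TAC vehicle, and 6.87, 6.89 and 7.24 with sham. At day 28 Cilp was 7.54, 7.53 and 7.69 in TAC JQ1 hearts, 10.49, 8.90 and 10.59 in TAC vehicle hearts, and 7.32, 7.34 and 7.28 in sham hearts. JQ1 and vehicle arrays overlapped at day 3, and by day 28 the JQ1 arrays lay just above sham while the vehicle arrays lay at 8.90 or higher. TAC raised Cilp 2.17-fold, 5.62-fold and 6.40-fold at days 3, 11 and 28 (1.12, 2.49 and 2.68, SE 0.28 each, adjusted p = 0.0148, 2.28e-06 and 1.15e-06). The day 3 call ended when TAC vehicle replicate 2 was left out (1.08, adjusted p = 0.0894) and when sham replicate 3 was (1.03, 0.075). Cilp was lower with JQ1 than with vehicle, with differences of −1.49 ± 0.28 at day 11 and −2.41 ± 0.28 at day 28 (adjusted p = 0.000766 and 2.59e-06). At day 28 that was the third largest fall of all 19937 genes with JQ1. The day 3 difference was −0.21 ± 0.28 (adjusted p = 0.761). Relative to sham, JQ1-treated hearts differed by 0.91 at day 3, 1.0 at day 11 and 0.27 at day 28 (adjusted p = 0.0267, 0.0232 and 0.606). With the groups compared fitted alone the day 28 difference was called (adjusted p = 0.0467). The day 3 call against sham ended on leaving out TAC JQ1 replicate 3 (0.69, adjusted p = 0.131), sham replicate 1 (0.92, 0.0597) or sham replicate 3 (0.82, 0.101). That of day 11 ended on leaving out TAC JQ1 replicate 1 (0.92, adjusted p = 0.102) or 2 (0.93, 0.0929), or sham replicate 1 (0.94, 0.0907) or 2 (0.95, 0.0841).

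Sparc encodes osteonectin, which binds collagen and steers its processing into fibrils. At day 3 Sparc measured 12.21, 12.24 and 12.37 in TAC JQ1 hearts, 12.29, 12.52 and 12.34 in TAC vehicle hearts, and 11.87, 11.91 and 11.72 in sham hearts. At day 11 Sparc stood at 12.40, 12.35 and 12.30 with TAC JQ1, 12.89, 12.76 and 12.80 with TAC vehicle, and 11.65, 11.87 and 11.71 with sham. At day 28 Sparc was 12.35, 12.21 and 12.23 in TAC JQ1 hearts, 12.71, 12.50 and 12.75 in TAC vehicle hearts, and 11.76, 11.88 and 11.92 in sham hearts. The arrays of a group lay close together, both TAC groups were separate from sham on each day, and JQ1 was separate from vehicle at days 11 and 28. The differences were the smallest in the set for JQ1 and were still called at days 11 and 28 (−0.46 ± 0.08 and −0.39 ± 0.08, adjusted p = 0.000391 and 0.00141). At day 3 JQ1 made −0.11 ± 0.08 (adjusted p = 0.467). The rise with TAC was 0.55, 1.07 and 0.80 at days 3, 11 and 28 (SE 0.08 each, adjusted p = 0.000196, 9.08e-09 and 8.96e-07). Against sham the JQ1 hearts were higher by 0.44, 0.61 and 0.41 (adjusted p = 0.000512, 3.58e-05 and 0.000691).

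Follistatin-like 1, encoded by Fstl1, is a secreted glycoprotein of the SPARC family that binds BMP-type ligands and is made by heart muscle and stroma. At day 3 Fstl1 measured 11.15, 11.15 and 11.45 in TAC JQ1 hearts, 11.35, 11.68 and 11.34 in TAC vehicle hearts, and 10.39, 10.27 and 10.21 in sham hearts. At day 11 Fstl1 stood at 11.17, 10.97 and 10.86 with TAC JQ1, 11.89, 12.00 and 11.97 with TAC vehicle, and 9.87, 10.20 and 10.07 with sham. At day 28 Fstl1 was 11.26, 11.09 and 11.04 in TAC JQ1 hearts, 11.66, 11.29 and 11.92 in TAC vehicle hearts, and 10.00, 10.07 and 10.05 in sham hearts. The JQ1 arrays stayed above sham on all 3 days and below vehicle at days 11 and 28. TAC raised Fstl1 2.24-fold, 3.75-fold and 3.00-fold at days 3, 11 and 28 (1.17, 1.91 and 1.58, SE 0.13 each, adjusted p = 6.77e-06, 2e-09 and 5.2e-08). With JQ1 the differences were −0.21 ± 0.13 at day 3 (adjusted p = 0.365), −0.96 ± 0.13 at day 11 (2.14e-05) and −0.50 ± 0.13 at day 28 (0.00731), of which the last 2 were called. Leaving out TAC vehicle replicate 3 (−0.35, adjusted p = 0.0683) ended the day 28 call, and so did fitting the groups compared alone (adjusted p = 0.0647). The excess over sham in JQ1-treated hearts was 0.96, 0.95 and 1.09 at days 3, 11 and 28 (adjusted p = 1.32e-05, 3.53e-05 and 1.72e-06).

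**Figure D2:**
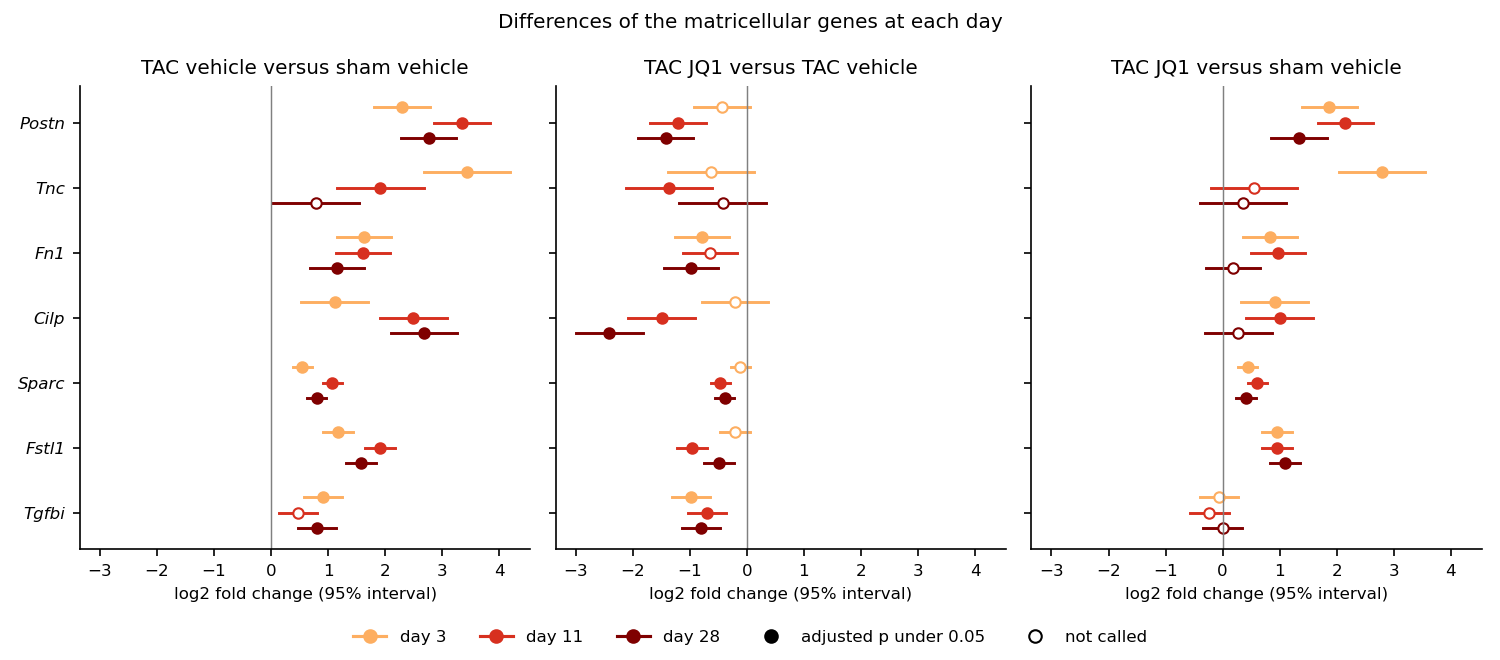
Log2 fold changes of the 7 genes at days 3, 11 and 28 with 95% intervals for TAC vehicle against sham, TAC JQ1 against TAC vehicle and TAC JQ1 against sham, where filled points have an adjusted p under 0.05. The points of the middle panel lie left of 0 for all 7 genes, and those of Tgfbi in the right panel have intervals that span 0.

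Averaged over the days, the effects on the 7 genes differed in size. Cilp had the largest mean fall with JQ1 (−1.37 ± 0.16, adjusted p = 6.62e-07), and Postn followed with −1.02 ± 0.14 (3.37e-06). Tgfbi (−0.83 ± 0.09), Tnc (−0.81 ± 0.21), Fn1 (−0.80 ± 0.13), Fstl1 (−0.55 ± 0.07) and Sparc (−0.32 ± 0.05) were also called. For TAC vehicle against sham the mean effects were 2.81 ± 0.14 for Postn, 2.10 ± 0.16 for Cilp, 2.04 ± 0.21 for Tnc, 1.55 ± 0.07 for Fstl1, 1.47 ± 0.13 for Fn1, 0.81 ± 0.05 for Sparc and 0.73 ± 0.09 for Tgfbi. These 2 comparisons share the TAC vehicle arrays.

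Hearts with TAC and JQ1 were also set against sham directly. At day 3 JQ1-treated hearts held more of 6 of the 7 genes, all but Tgfbi, beside 6.94% of all genes called higher. At day 11 it was 5 of 7, beside 5.01%, and at day 28 3 of 7, namely Postn, Sparc and Fstl1, beside 7.36%. In the mean of the 3 days 6 were called, beside 12.8%. Tgfbi was the exception, with a mean difference of −0.10 ± 0.09 (95% interval −0.29 to 0.10, adjusted p = 0.529). JQ1 arrays lay above all sham arrays of their day for 6, 6 and 5 genes, against 11.4%, 14.8% and 14.7% of all genes. At day 11 Tgfbi lay below sham without overlap, as 17.8% of all genes did. Single arrays brought the day 3 count of 6 as low as 4 and the day 11 count of 5 to 4, through Fn1 and Cilp as given with those genes.

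The courses under TAC differed between genes. In TAC vehicle hearts Tnc fell by 2.75 ± 0.37 between days 3 and 28 (adjusted p = 0.000124), and Cilp rose by 1.62 ± 0.28 (adjusted p = 0.00205). These were 2 of 7 genes called, beside 3.65% of all genes. Among all 19937 genes the fall of Tnc was the largest in that comparison. In TAC JQ1 hearts Tnc fell too, with −2.27 ± 0.37 at day 11 and −2.54 ± 0.37 at day 28 against day 3 (adjusted p = 0.00378 and 0.000305). No other gene of the set was called over time under JQ1, beside 1.82% of all genes at day 11 and 6.4% at day 28 against day 3. Cilp in JQ1 hearts differed by −0.57 ± 0.28 between days 3 and 28 (adjusted p = 0.287). Between days 11 and 28 0 of the 7 were called in either TAC group by limma, beside 2.09% of all genes with vehicle and 5.26% with JQ1, although Tnc with vehicle stood at −1.21 ± 0.37 (adjusted p = 0.0836). At an unadjusted p under 0.05 it was 1 gene with JQ1, Fn1, and 2 with vehicle, Tnc and Fstl1. In sham hearts 0 of the 7 genes were called between days by limma's F test, beside 0.0652% of all genes, and 0 at an unadjusted p under 0.05. The smallest adjusted p was 0.857, for Fstl1, and with array weights 1 gene was called. Sparc at day 28 against day 3 was called without the dimmest genes (0.27, adjusted p = 0.0412), with trend and robust moderation (0.0315) and with array weights (0.0467), and Tnc at day 28 against day 11 with array weights (−1.34, 0.00873). With array weights Tgfbi was called lower at day 11 than at day 3 under JQ1 (−0.44, adjusted p = 0.0207). The Cilp call over days 3 and 28 was lost with the groups compared fitted alone (adjusted p = 0.0941). With TAC vehicle replicate 2 of day 28 left out, Postn (0.85, adjusted p = 0.0393) and Sparc (0.34, 0.027) were called higher at day 28 than at day 3, and Cilp higher than at day 11 (1.05, 0.00385). With replicate 2 of day 3 left out Sparc was called as well (0.34, adjusted p = 0.0472), and with replicate 1 of day 3 left out Tgfbi was called lower at day 28 (−0.62, adjusted p = 0.00974).

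Between days 3 and 11 5 of the 7 genes were called in TAC vehicle hearts, beside 1.45% of all genes. Cilp (1.12 ± 0.28, adjusted p = 0.0459), Fstl1 (0.50 ± 0.13, 0.0468) and Sparc (0.43 ± 0.08, 0.00758) were higher at day 11, and Tnc (−1.54 ± 0.37, 0.0317) and Tgfbi (−0.66 ± 0.16, 0.0401) were lower. Postn arrays of day 11 lay above those of day 3 without overlap, but the difference was not called (0.67 ± 0.24, adjusted p = 0.224). It was called with array weights (0.78, adjusted p = 0.0274) and without TAC vehicle replicate 2 of days 3 and 28 together (0.90, adjusted p = 0.0241). Without those 2 arrays the count of 5 was 4, with Postn and without Tnc (adjusted p = 0.177) and Tgfbi (0.217). Most of these calls hung on single arrays. Without TAC vehicle replicates 1, 2 and 3 of day 3 in turn 3, 2 and 0 genes were called, and without replicates 1, 2 and 3 of day 11 in turn 1, 1 and 2 were called. Without replicate 2 of day 3 the difference of Tnc was −0.99 and that of Tgfbi −0.43 (adjusted p = 0.163 and 0.202). The Cilp call ended on leaving out any 1 of the 6 arrays, with adjusted p between 0.0719 and 0.259. The Fstl1 call ended on all but replicate 2 of day 3 (0.102 to 0.264) and the Tgfbi call on all but replicate 1 of day 3 (0.0835 to 0.214). The Tnc call ended on replicates 2 and 3 of day 3 and replicates 1 and 2 of day 11 (0.0684 to 0.219). The Sparc call was lost only without replicate 3 of day 3 (0.41, adjusted p = 0.0649) and with the groups compared fitted alone (adjusted p = 0.0866).

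Whether the effects themselves differed between days was tested with F tests over the 3 days. The TAC effect differed for 2 of 7 genes, Tnc (adjusted p = 0.026) and Sparc (adjusted p = 0.0499), beside 1.31% of all genes. The TAC effect on Tnc was smaller at day 28 than at day 3, with a difference of −2.65 ± 0.52 (adjusted p = 0.0113). For Sparc it was 0.52 ± 0.12 larger at day 11 than at day 3 (adjusted p = 0.0451). Cilp (adjusted p = 0.065), Fstl1 (0.0728) and Postn (0.211) were not called by the F test, although the TAC effect on Cilp was 1.56 ± 0.40 larger at day 28 than at day 3 (adjusted p = 0.0472 for that contrast). The JQ1 effect differed for 1 of 7 genes, Cilp (adjusted p = 0.0269), beside 1.07% of all genes. It was more negative at day 28 than at day 3 by −2.20 ± 0.40 (adjusted p = 0.0209).

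These tests between days were sensitive to single arrays. Leaving out 1 of the 18 arrays in turn ended the Tnc call for 7 of them (sham replicates 1 and 3 and TAC vehicle replicate 3 of day 3, and sham replicates 1, 2 and 3 and TAC vehicle replicate 3 of day 28), with adjusted p between 0.0509 and 0.074. The Sparc call was kept only without sham replicate 3 or TAC vehicle replicate 2 of day 3, sham replicate 2 of day 11 or TAC vehicle replicate 2 of day 28. The other 14 arrays ended it, with adjusted p between 0.0626 and 0.118. The Cilp call for JQ1 ended without TAC vehicle replicate 3 of day 3, TAC vehicle replicate 1 of day 28 or TAC JQ1 replicate 1 of day 28 (adjusted p between 0.0523 and 0.0695). With TAC vehicle replicate 2 of day 28 left out the TAC effect on Cilp (adjusted p = 0.000122) and on Fstl1 (0.0209) differed between days too, and the count was 4. Leaving out TAC vehicle replicate 2 of day 3 gave a call for Fstl1 as well (adjusted p = 0.0431). Its JQ1 effect was called on leaving out that array (adjusted p = 0.0395) or TAC vehicle replicate 2 (0.0393) or 3 (0.0372) of day 28. With both replicates 2 left out together the TAC effect differed for 4 genes, Postn (adjusted p = 0.029), Cilp (0.000383), Fstl1 (0.00734) and Sparc, while Tnc stood at 0.0505, and the JQ1 effect for 3, Postn (0.0158), Cilp and Fstl1 (0.00961). Array weights gave 5 genes for TAC and 5 for JQ1, and the groups compared fitted alone gave 1 and 0.

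Ordered by mean level, the 9 groups ran as follows. For Postn the order was TAC vehicle at day 11 (12.46), day 28 (12.33) and day 3 (11.79), then TAC JQ1 at day 3 (11.36), day 11 (11.26) and day 28 (10.90), then sham at 9.57 or below. Of its 8 neighbouring pairs 3 did not overlap, JQ1 day 11 with JQ1 day 28, JQ1 day 28 with sham day 28, and sham day 3 with sham day 11. For Tnc the 3 highest groups were TAC vehicle day 3 (9.59), TAC JQ1 day 3 (8.96) and TAC vehicle day 11 (8.05), which overlapped in turn, and the gap below them was free of arrays. Cilp began with TAC vehicle at day 28 (9.99) and day 11 (9.49), which overlapped with each other and not with the rest. For Fn1 all 8 neighbouring pairs overlapped, between TAC vehicle at day 11 (10.72) and sham at day 3 (8.98). Sparc, Fstl1 and Tgfbi had 2 separate neighbouring pairs each. For all genes but Tgfbi the 6 TAC group means stood above the 3 sham means, and for Tgfbi the lowest group was TAC JQ1 at day 11 (8.74). From the lowest to the highest group mean the signal spanned 11.6-fold for Tnc, 10.2-fold for Postn, 7.98-fold for Cilp, 3.77-fold for Fstl1, 3.34-fold for Fn1, 2.56-fold for Tgfbi and 2.10-fold for Sparc.

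Over the 27 arrays the 7 genes were not alike. Pearson's r of the log2 levels in the 21 pairs ran from 0.399 (Tnc with Cilp) to 0.974 (Postn with Fstl1), with a median of 0.695. Postn, Fstl1 and Sparc formed the closest trio, and Tnc and Tgfbi stood apart from it. These values include the differences between the groups. With each group's mean taken out, r ran from −0.07 (Cilp with Tgfbi) to 0.832 (Tnc with Fn1), with a median of 0.506, and Sparc with Fstl1 gave 0.812. Deviations on 1 array share its RNA and its hybridisation, so these values are a description.

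**Figure D3:**
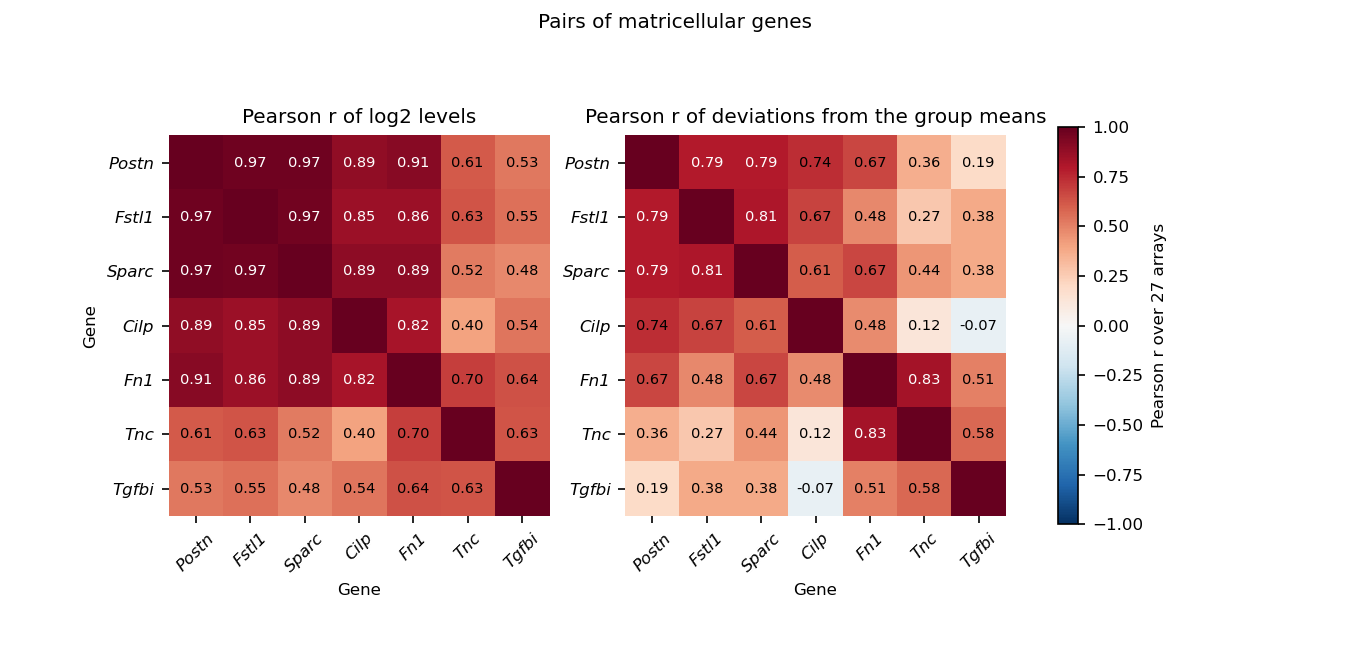
Pearson's r between pairs of the 7 genes over 27 arrays, for the log2 levels (left) and for deviations from the group means (right), on a colour scale from −1 to 1. Postn, Fstl1 and Sparc have the highest values on the left, and Tnc with Fn1 the highest on the right.

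The nearest genes outside the set differed from member to member. Over the 27 arrays Postn was closest to Bgn, a small proteoglycan that binds collagen (r = 0.98). Fn1 was closest to the fibrillar collagen genes Col3a1 (0.942), Col1a1 (0.928) and Col1a2 (0.927). Cilp was closest to the matricellular gene Thbs4 (0.973), Serpinf1 (0.959) and Igfbp7 (0.953). Tnc was closest to the metalloproteinase inhibitor Timp1 (0.916), the retinoic acid enzyme Aldh1a2 (0.915) and the collagen-folding subunit P4hb (0.898). Fstl1 was closest to Emp1 (0.989) and the short-chain collagen gene Col8a1 (0.981), and Sparc, after Postn and Fstl1, to the microfibril gene Mfap5 (0.958). Tgfbi was closest to Dpep2 (0.941), Pdpn (0.918) and the macrophage gene Cd68 (0.909). Over the 9 group means its nearest gene was the myeloid integrin Itgam (0.986), that of Cilp Ltbp2 (0.993), that of Tnc P4hb (0.983) and that of Postn the procollagen protease Bmp1 (0.995). Over those means Map1b (0.972) was nearest to Fn1, Necap2 (0.983) to Sparc and Emp1 (0.994) to Fstl1. These are the highest of 19937 values on the same arrays and carry no test.

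Cells read matricellular proteins through integrins and CD44. Of 17 receptor genes 10 were called higher in TAC vehicle than in sham hearts in the mean of the 3 days, with a median of 0.22, where 13.0% of all genes were and the median was −0.03. By day it was 3, 9 and 5 of 17 at days 3, 11 and 28, beside 4.22%, 7.8% and 8.13% of all genes. With JQ1 11 of 17 were called lower than with vehicle (median −0.27), where 16.8% of all genes were and the median was 0.02. By day these were 5, 10 and 9 of 17, beside 7.61%, 8.43% and 12.4% of all genes. Without TAC vehicle replicate 2 of days 3 and 28 the mean counts were 10 and 10. Cd44, the hyaluronan receptor that also binds osteopontin, rose with TAC by 0.92 ± 0.10 (adjusted p = 1.43e-07) and fell by 0.55 ± 0.10 with JQ1 (0.000106). Itga5, the fibronectin-specific integrin chain, rose by 0.71 ± 0.08 and fell by 0.55 ± 0.08 with JQ1 (adjusted p = 7.87e-07 and 2.11e-05). Itga9, which binds tenascin-C, rose by 0.66 ± 0.08 with TAC and fell by 0.85 ± 0.08 with JQ1 (adjusted p = 1.4e-06 and 3.26e-08). At days 3, 11 and 28 the JQ1 differences of Itga9 were −0.78, −0.89 and −0.89, all called. The αv chain Itgav (0.29 ± 0.04 with TAC, −0.24 ± 0.04 with JQ1) and its partner Itgb5 (0.33 ± 0.05 and −0.54 ± 0.05), through which periostin acts, moved the same way and were called. Itgb5 in JQ1-treated hearts was also below sham (−0.20 ± 0.05, adjusted p = 0.0024). Itgb3 was not called in either (0.16 ± 0.08 and −0.05 ± 0.08). The β1 chain Itgb1 rose with TAC by 0.22 ± 0.04 in the mean of the 3 days (adjusted p = 0.000376), and its JQ1 difference was −0.09 ± 0.04 (0.145). At day 28 its mean level was 10.99 with TAC vehicle and 11.00 with sham. The largest JQ1 fall on the list was that of Itgb6, the β chain of a TGF-beta-activating integrin (−1.71 ± 0.12, adjusted p = 2.15e-10), whose TAC difference was −0.23 ± 0.12 (0.162). Itga4, a fibronectin-binding chain of leukocytes, was also lower with JQ1 (−0.59 ± 0.08, adjusted p = 3.16e-06). Itga8 was not called with TAC (−0.00 ± 0.07, adjusted p = 0.979) and was lower with JQ1 (−0.27 ± 0.07, 0.00374).

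**Figure D4:**
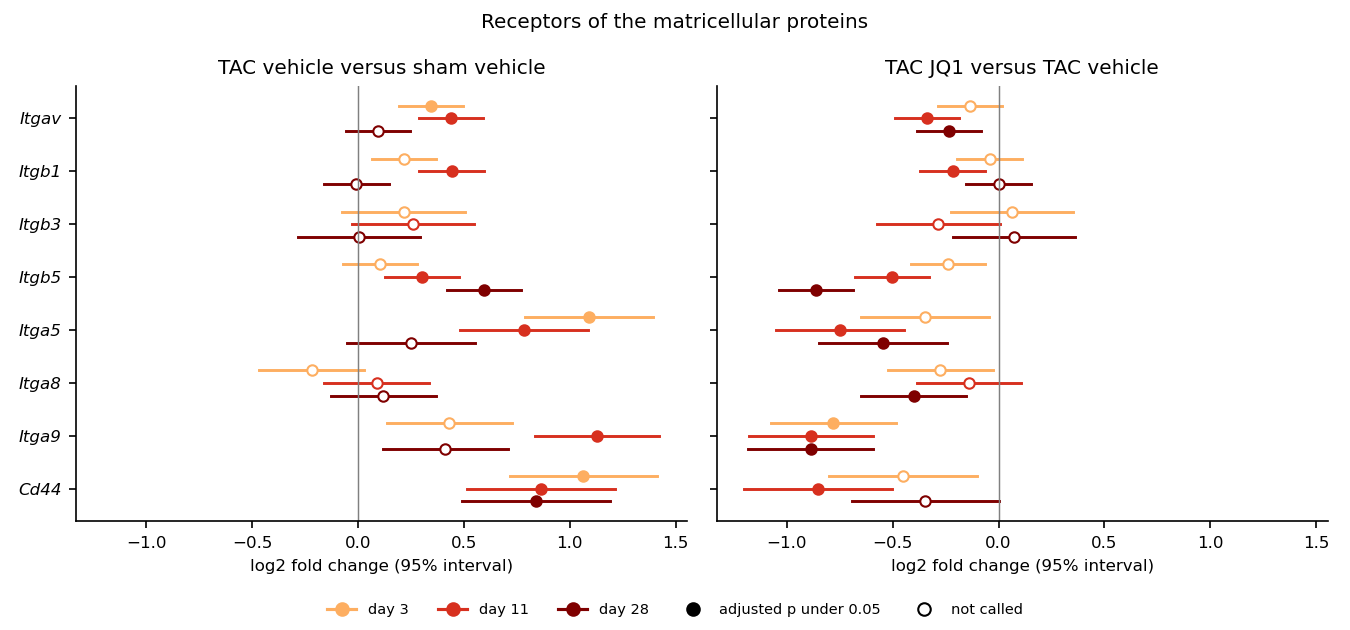
Log2 fold changes with 95% intervals of 8 receptor genes at days 3, 11 and 28 for TAC vehicle against sham (left) and TAC JQ1 against TAC vehicle (right), with filled points for an adjusted p under 0.05. Itga5 and Cd44 lie farthest right with TAC at day 3 and Itga9 at day 11, and Itga9 is filled on all 3 days with JQ1.

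Close relatives of the 8 listed genes, the unmeasured Spp1 included, mostly were not called. Of 20 genes from the tenascin, CILP, SPARC, follistatin, stabilin and bone sialoprotein families 4 were called higher with TAC, beside 13.0% of all genes, with a median of −0.02 (all genes −0.03). They were Fstl3 (0.66 ± 0.06), the stabilin Stab1 (0.52 ± 0.09), Fstl4 (0.27 ± 0.08) and Smoc2 (0.18 ± 0.05). With JQ1 5 were called lower, Stab1 (−0.46 ± 0.09), Sparcl1 (−0.38 ± 0.08), Fstl3 (−0.34 ± 0.06), Fstl4 (−0.22 ± 0.08) and Smoc1 (−0.19 ± 0.07), beside 16.8% of all genes, with a median of −0.00 (all genes 0.02). Both counts lie near those shares and are no result about the relatives. The other tenascin genes were not called with TAC, at −0.14 ± 0.07 for Tnn, −0.00 ± 0.06 for Tnr and −0.03 ± 0.06 for Tnxb, and neither was the CILP relative Cilp2 at −0.06 ± 0.07. These 4 uncalled genes are named for their kinship with Tnc and Cilp and were chosen after their values were seen. Smoc1 is named to complete the 5 and was also chosen after its value was seen. Without both replicates 2 the counts were again 4 and 5. Stab1 is also on the receptor list.

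The matrix partners that these proteins bind or help to assemble moved with the groups as well. Of 18 measured collagen, cross-linking and proteoglycan genes 17 were called higher with TAC in the mean of the 3 days (median 0.68), and all 18 lower with JQ1 (median −0.51), where 13.0% and 16.8% of all genes were and the medians of all genes were −0.03 and 0.02. Without both replicates 2 the counts were 17 and 17. By day 13, 16 and 13 were higher with TAC at days 3, 11 and 28, beside 4.22%, 7.8% and 8.13% of all genes. At day 28 1 gene of the list was called lower with TAC, and 1 was also without both replicates 2. With JQ1 4, 15 and 15 were lower, beside 7.61%, 8.43% and 12.4%, and without both replicates 2 the 4 of day 3 became 2. Fbn1 of this list was not measured. The proteoglycan genes Bgn (0.92 ± 0.05 with TAC, −0.41 ± 0.05 with JQ1) and Vcan (1.73 ± 0.10 with TAC), the fibulin gene Fbln2 (0.91 ± 0.05 with TAC) and the collagen genes Col1a2 (1.07 ± 0.08, −0.71 ± 0.08), Col1a1 (−0.70 ± 0.09 with JQ1) and Col3a1 (−0.85 ± 0.11 with JQ1) are examples. The basement membrane gene Hspg2 was the 1 gene not called with TAC (0.07). Dcn of this list is also counted among the fibroblast markers.

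TGF-beta is the best known inducer of several of these genes. A list of 19 genes held its ligands, receptors, Smads, latency proteins and regulators, with Smad7, Skil and Srf among them. A place on it does not mean that a gene promotes TGF-beta signalling. Of the 19 genes 10 were called higher and 2 lower with TAC (median 0.31), beside 13.0% and 12.9% of all genes and a median of −0.03. With JQ1 1 was called higher and 11 lower (median −0.29), beside 12.3% and 16.8% of all genes and a median of 0.02. Without both replicates 2 it was 11 higher and 2 lower with TAC, and 0 higher and 11 lower with JQ1. The ligand genes Tgfb2 (1.05 ± 0.09 with TAC, −0.95 ± 0.09 with JQ1) and Tgfb3 (0.83 ± 0.10, −0.86 ± 0.10) and the receptor gene Tgfbr2 (0.34 ± 0.04, −0.51 ± 0.04) changed in both. Thbs1, a matricellular activator of latent TGF-beta, rose by 1.90 ± 0.15 with TAC (adjusted p = 2.51e-09). Itgb6 and Itgb8 are on this list and on the receptor list.

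Markers of several cell types were also followed, since a piece of heart holds more than 1 type. Their counts stand beside 13.0% of all genes called higher and 12.9% lower with TAC, and 12.3% higher and 16.8% lower with JQ1. Of 10 fibroblast markers 9 were called higher with TAC in the mean of the 3 days, and 7 were called lower and 1 higher with JQ1. Of 13 macrophage markers 12 were higher with TAC and 11 lower with JQ1. Without TAC vehicle replicate 2 of days 3 and 28 these counts over the 3 days were 9, 7 and 1 for fibroblasts and 12 and 11 for macrophages. At day 3 alone 2 fibroblast markers were called higher and 1 lower with TAC, and 3 lower and 1 higher with JQ1. Of the macrophage markers 6 were higher with TAC and 8 lower with JQ1 at day 3. All genes gave 4.22% higher with TAC and 7.61% lower with JQ1 that day. Without those 2 arrays the day 3 fibroblast counts were 2 and 0 with TAC and 0 and 0 with JQ1. The macrophage counts were then 2 and 5. The summed linear signal of the fibroblast markers at day 28 was 18098 to 22633 on TAC JQ1 arrays, 20958 to 28207 on TAC vehicle arrays and 14080 to 14915 on sham arrays. At day 11 it was 16185 to 18218 with TAC JQ1, 20837 to 22243 with TAC vehicle and 14581 to 15033 with sham. At day 3 the sums of the 3 groups overlapped. They were 16559 to 17553 with TAC JQ1, 17139 to 18464 with TAC vehicle and 16099 to 17601 with sham. Taken as a mean of log2 levels, the same markers ran from 9.97 to 10.07 with TAC vehicle at day 3. That was above 9.72 to 9.89 with TAC JQ1 and 9.65 to 9.81 with sham. Tnc was highest at day 3. The macrophage sum at day 3 was 7827 to 8218 with TAC JQ1, 9268 to 12016 with TAC vehicle and 6861 to 8490 with sham, and the Tgfbi arrays overlapped and separated in the same way. At day 11 the macrophage sum was 6995 to 8008 with TAC JQ1, 9698 to 10835 with TAC vehicle and 6068 to 6375 with sham. All JQ1 arrays thus lay above sham in this sum at day 11, while for Tgfbi all lay below sham. As a mean of log2 levels the macrophage markers ran from 8.45 to 8.52 with TAC JQ1 and 8.38 to 8.42 with sham. Against sham 2 of the 13 were called higher with JQ1 at day 11, beside 5.01% of all genes, and 1 lower. At day 28 the macrophage sum was 8301 to 10769 with TAC JQ1, 11234 to 14158 with TAC vehicle and 5543 to 6089 with sham. JQ1 hearts thus lay above sham in this sum but not for Tgfbi, and 7 of the 13 markers were called higher, beside 7.36%. On TAC vehicle replicate 2 of day 28, the low array for Cilp, the fibroblast sum was 20958, against 24810 and 28207 on the other arrays of the group. On TAC vehicle replicate 2 of day 3, where all 7 genes lay above their group means, it was 17139, against 18464 and 17748. The mean log2 level of the fibroblast markers on that day 3 array was 10.07, against 10.05 and 9.97.

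Endothelial markers were higher with TAC in 2 of 8 and lower with JQ1 in 6 of 8, and cardiomyocyte markers were lower with TAC in 4 of 11 and higher with JQ1 in 2 of 11. Smooth muscle and pericyte markers were higher in 4 and lower in 2 of 9 with TAC, and higher in 1 and lower in 2 with JQ1. Of 6 neutrophil markers 1 was higher with TAC and 1 lower with JQ1, and 4 of the 6 (S100a8, Ly6g, Cxcr2 and Retnlg) were among the dim genes left out in 1 of the alternative fits. T cell markers were higher in 1 of 6 with TAC and lower in 1 of 6 with JQ1. No mesothelial (6) or adipocyte marker (4 of 5 measured) was called in either in the mean of the 3 days. The same dim genes included 2 T cell markers (Cd3g and Cd3d), 4 mesothelial markers (Upk3b, Upk1b, Krt19 and Lrrn4) and 2 adipocyte markers (Adipoq and Lep). Counts of 1 of 6 are close to the shares of all genes. Without both replicates 2 endothelial markers were 1 higher with TAC and 6 lower with JQ1, and cardiomyocyte markers 3 lower with TAC and 0 higher with JQ1. Smooth muscle and pericyte markers were then 0 higher with JQ1, and neutrophil and T cell markers 0 higher with TAC. No marker on any list is listed at 0, since the values are log2 signals. The part of these markers in the differences of Postn, Tgfbi, Fn1, Tnc, Cilp, Sparc and Fstl1 was not tested.

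**Figure D5:**
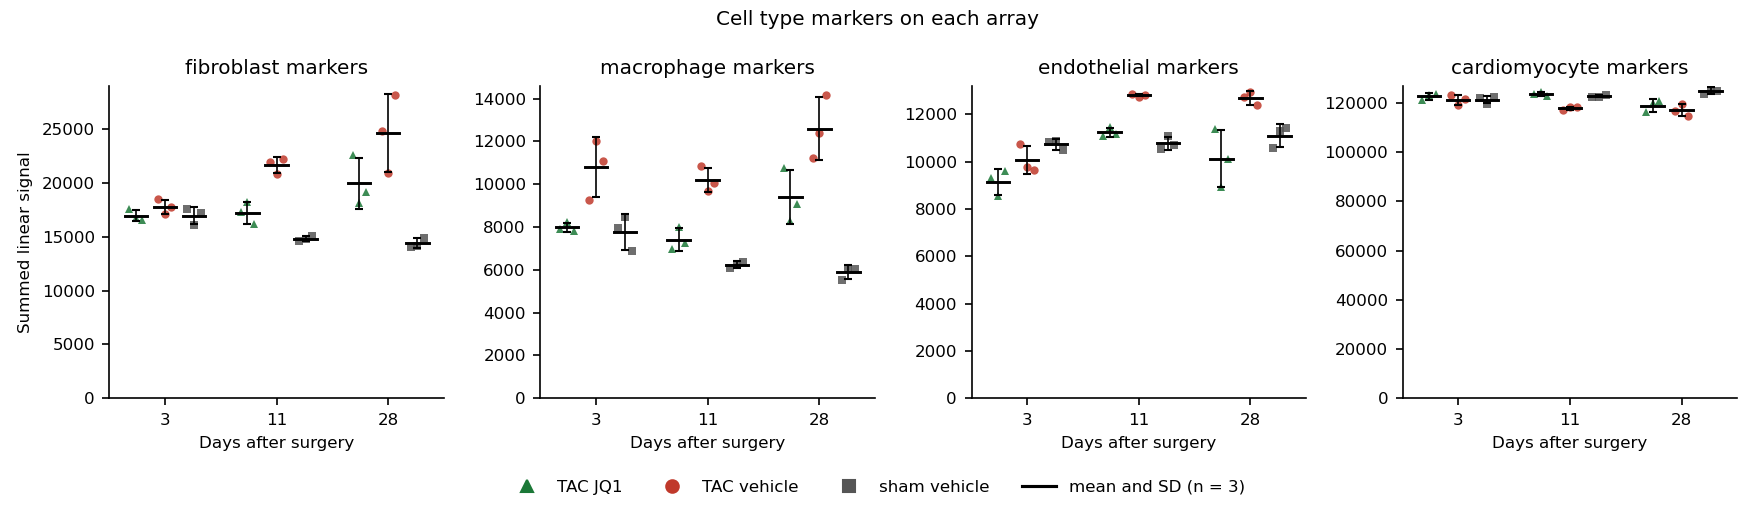
Summed linear signal of fibroblast, macrophage, endothelial and cardiomyocyte markers on each array by day, with TAC JQ1 (triangles), TAC vehicle (circles) and sham vehicle (squares) and bars for the mean and SD of 3 arrays. Fibroblast sums of the 3 groups overlap at day 3 and TAC vehicle sums stand above sham at days 11 and 28.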

How the data were processed

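RNA from 27 pieces of heart was hybridised to Affymetrix whole-transcript arrays after Ambion WT Expression amplification, per the labels' protocols. The values are log2 signals as deposited by the authors, 1 for each of 34760 probe sets on each array, and the sources used here do not name their normalization. Per the submitters' processing notes limma was used, version unstated. Of the probe sets 21640 had 1 gene symbol in the annotation, 1321 several and 11799 none. Probe sets with 1 symbol were kept, and for the 954 genes with more than 1 the probe set with the highest mean was used, which left 19937 genes. No filter on dim genes was set.

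Groups came from the sample titles and treatment labels. Group means were fitted with limma 3.58.1 in R 4.3.3 (lmFit and eBayes over the 27 arrays and 9 groups, residual df 18, two-sided), p-values were adjusted by Benjamini-Hochberg over all genes, and effects were compared between days with moderated F tests. The script was tested on simulated data. The 7 genes, the gene and marker lists and the tests were chosen with earlier results of these data known. All measured members are named, the 3 genes nearest to each by Pearson's r, and from each list up to 4 called genes with the smallest p, beside 8 known receptors. Exceptions chosen after their values were seen are named as such. The alternatives were quantile normalization, centring on the median, the dimmest genes left out (1 in 3), probe sets of a gene averaged, trend and robust moderation, array weights, the groups compared alone, a replicate block and each array left out in turn. TAC vehicle replicate 2 left out at days 3 and 28 together, for the 7 genes and for the lists, was added after the data were seen.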

Additional observations from a re-analysis of the deposited data

Results flagged for a closer look

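The effect of TAC differed between days 3, 11 and 28 for 2 of the 7 genes by limma's F test, Tnc (adjusted p = 0.026) and Sparc (adjusted p = 0.0499). Tnc stood 3.43, 1.92 and 0.78 above sham at the 3 days, and Sparc 0.55, 1.07 and 0.80. The effect of JQ1 differed between the days for Cilp (adjusted p = 0.0269), with differences from TAC vehicle of −0.21, −1.49 and −2.41. These calls hung on single arrays. Of 18 arrays left out in turn, 7 ended the Tnc call, 14 the Sparc call and 3 the Cilp call.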

How the results depend on the processing

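Of 2576 recomputed values for single genes 2438 kept their direction and their side of the threshold, 87 lost a call, 51 gained one and 0 reversed. For JQ1 against TAC vehicle at day 3 the 2 genes called became 1 with array weights, 0 with the groups compared fitted alone and 1 without TAC vehicle replicate 2 of days 3 and 28. Leaving out 1 array in turn gave 1 to 3. The count of 2 genes whose TAC effect differed between days became 1 with quantile normalization, 1 with centring on the median, 1 with the replicate block, 1 with the groups alone, 4 without the dimmest genes, 4 without both replicates 2 and 5 with array weights, and 0 to 4 with 1 array left out. For the JQ1 effect the 1 gene became 0 with the replicate block, 0 with the groups alone, 2 without the dimmest genes, 3 without both replicates 2 and 5 with array weights, and 0 to 2 with 1 array left out. For sham the 0 became 1 with array weights. In TAC vehicle hearts the 5 genes called between days 3 and 11 became 3 with trend and robust moderation, 3 with the replicate block and 1 with the groups alone, 4 without both replicates 2, and 0 to 3 with 1 array left out. The 0 between days 11 and 28 became 1 with array weights and 1 without both replicates 2, and 0 to 1 with 1 array left out. The 2 between days 3 and 28 became 1 with the groups alone and 4 without both replicates 2, and 2 to 4 with 1 array left out. In TAC JQ1 hearts the 1 between days 3 and 11 became 2 with array weights. Fn1 at day 11 under JQ1 was also called with the replicate block (adjusted p = 0.0206). The cause of these shifts was not tested. Fits of the groups alone use fewer arrays.

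No pairing of the arrays by replicate number was seen. The correlation of deviations was over 0.1 in 7 of 27 same-numbered pairs. Its mean was 0.015 for the same number and −0.008 for different numbers. With 3 arrays in a group this check cannot exclude a pairing, and the replicate block is given here only. The counts over all genes moved by over 1.5 times as well. TAC vehicle against sham gave 1506 genes at day 3, but 2902 with array weights, 250 with the groups alone and 475 without both replicates 2, and 3097 at day 11, but 5974 with array weights. JQ1 against TAC vehicle gave 2372 at day 3 (422 with the groups alone, 1449 without both replicates 2), 3180 at day 11 (6933 with array weights) and 3907 at day 28 (2126 with the groups alone). JQ1 against sham gave 3511 at day 3 (6334 with array weights, 1178 with the groups alone) and 2097 at day 11 (5461 with array weights). The F test of the TAC effect called 261 genes, and from 135 with the replicate block to 2045 with array weights. That of the JQ1 effect called 213, and from 2 with the groups alone (44 with the replicate block) to 2710 with array weights, and that of sham 13, and from 0 to 2164 in the same way. Between days the groups alone and array weights gave 26 and 887 against 289 for TAC vehicle at day 11 over day 3, 141 and 1456 against 416 at day 28 over day 11, 9 and 3958 against 363 for TAC JQ1 at day 11 over day 3, and 0 and 2231 against 1048 at day 28 over day 11. At day 28 over day 3 the groups alone gave 118 (480 without both replicates 2) against 727 for TAC vehicle and 13 against 1275 for TAC JQ1. Leaving out 1 array gave 466 to 1812 for TAC vehicle against sham at day 3 and 1794 to 2817 at day 28 (3013), 1409 to 2740, 2039 to 2679 and 2707 to 4515 for JQ1 against TAC vehicle at days 3, 11 and 28, and 1180 to 1827 for JQ1 against sham at day 11. It gave 96 to 405, 37 to 437 and 0 to 15 for the F tests of TAC, JQ1 and sham. For TAC vehicle it gave 40 to 322 at day 11 over day 3, 101 to 370 at day 28 over day 11 and 299 to 788 at day 28 over day 3, and for TAC JQ1 81 to 607, 282 to 1643 and 317 to 1411.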
